A study of Mus musculus with 12 samples.

Results

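AMP-activated protein kinase (AMPK) is encoded in the mouse by 7 subunit genes, and with the genes of its main upstream kinases, LKB1 (*Stk11*) and CaMKK2 (*Camkk2*), these made up 9 of the 27179 genes in the count table. They were taken by gene symbol: *Prkaa1* and *Prkaa2* for the catalytic α subunits, *Prkab1* and *Prkab2* for the scaffold β subunits, and *Prkag1*, *Prkag2* and *Prkag3* for the nucleotide-binding γ subunits. All 9 passed the expression filter, with 439 to 18138 reads per muscle. The RNA came from the tibialis anterior (TA) of 6 male wild-type C57BL/6N mice, received at 6 to 8 weeks of age and used within 2 weeks of arrival. One TA of each mouse was electroporated with 10 μg of the empty plasmid pcDNA3 (6 Control muscles) and the TA of the other leg with 10 μg of plasmid carrying the human lncRNA *FRAIL1* at full length behind a CMV promoter (6 *FRAIL1* muscles), and both were collected at day 7. Both groups therefore share the electroporation and the plasmid backbone, and the promoter is not restricted to muscle fibers. *FRAIL1* is a human transcript and is not among the mouse genes counted, so how much of it each muscle made was not measured here.

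AMPK is a heterotrimer of 1 α, 1 β and 1 γ subunit that senses falling cellular energy: AMP and ADP bind the γ subunit, and LKB1 or CaMKK2 phosphorylates the activation loop of the α subunit. Active AMPK slows energy-consuming processes such as fatty acid synthesis and mTORC1-driven growth and favors glucose uptake, fatty acid oxidation and autophagy. Each subunit has isoforms from separate genes. In skeletal muscle α2 and β2 are the abundant forms and γ3 is largely confined to glycolytic fibers, whereas α1, β1 and γ1 are found in most cell types. The γ2 gene *Prkag2* is broadly expressed and prominent in heart, and was placed in neither class.

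The genes lie apart in the genome, on 6 chromosomes of GRCm38.p6: *Prkaa1* at chr15:5143861-5181899, *Prkaa2* at chr4:105029649-105109898, *Prkab1* at chr5:116013586-116024503, *Prkab2* at chr3:97658211-97673812, *Prkag1* at chr15:98812797-98831508, *Prkag2* at chr5:24862735-25106282, *Prkag3* at chr1:74738922-74749471, *Stk11* at chr10:80115767-80130679 and *Camkk2* at chr5:122718380-122779522. Promoter windows of 250 bases before the RefSeq start are shown for the one of the 9 with the largest fall in *FRAIL1* muscles (*Prkab2*) and for the muscle-enriched and the ubiquitous α gene (*Prkaa2* and *Prkaa1*), whose read counts moved apart. They are written 5′ to 3′ along the gene, with capitals on each GC box, GGGCGG on either strand.
Prkab2 (chr3:97657962-97658211, plus strand): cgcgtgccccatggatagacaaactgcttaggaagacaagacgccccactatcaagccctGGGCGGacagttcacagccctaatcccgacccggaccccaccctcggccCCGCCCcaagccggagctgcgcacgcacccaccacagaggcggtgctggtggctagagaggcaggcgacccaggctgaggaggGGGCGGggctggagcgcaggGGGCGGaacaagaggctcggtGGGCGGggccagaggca
Prkaa2 (chr4:105109899-105110148, minus strand): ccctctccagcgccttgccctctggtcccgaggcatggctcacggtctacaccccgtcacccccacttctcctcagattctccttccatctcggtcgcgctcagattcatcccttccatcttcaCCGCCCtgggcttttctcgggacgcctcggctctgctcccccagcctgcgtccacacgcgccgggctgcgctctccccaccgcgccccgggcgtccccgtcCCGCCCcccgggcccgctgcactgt
Prkaa1 (chr15:5143611-5143860, plus strand): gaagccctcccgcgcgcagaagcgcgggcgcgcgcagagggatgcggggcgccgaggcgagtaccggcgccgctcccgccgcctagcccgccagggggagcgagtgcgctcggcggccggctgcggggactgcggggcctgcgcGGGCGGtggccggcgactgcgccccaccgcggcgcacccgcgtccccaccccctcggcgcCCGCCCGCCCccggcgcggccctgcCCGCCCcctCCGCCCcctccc

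The GC box was found 5 times in the *Prkab2* window, 2 times in that of *Prkaa2* and 5 times in that of *Prkaa1*, with matches that overlap counted each. It was found 1 time in those of *Prkag1* and *Camkk2*, 0 to 2 times in those of *Prkag2*, and not in those of *Stk11*, *Prkab1* and *Prkag3*. Of 32851 RefSeq windows of this length, 32.7% held at least 1. The 3 windows shown were 69.2%, 70% and 85.2% GC, against a median of 52.4%. None of the 3 held an E-box (CANNTG), the element bound by myogenic and clock bHLH factors, which 66.2% of all windows held. The windows of *Prkab1* and *Camkk2* held no E-box either, while those of *Prkag1* and *Prkag3* held 1, that of *Stk11* held 2, and the windows of the 3 *Prkag2* starts held between 1 and 3. The clock E-box CACGTG, the MEF2 element and TATAAA were in none of the 11 windows of the 9 genes, against 6.02%, 0.508% and 12.4% of all windows. With 18 CpG in the *Prkab2* window, 24 in that of *Prkaa2* and 45 in that of *Prkaa1*, all 3 lay above the median of 6. That of *Prkag3* held 9 CpG, but all 250 of its bases lie in an annotated UTR. Its counts therefore describe annotated transcript sequence. These letters describe the windows alone, and no binding or methylation was measured. A stretch of 19 bases of the *Prkab2* window lies in an annotated UTR, whose transcript and place in the window were not recorded. The windows of *Prkag3*, *Prkab1* and *Prkag1* hold 250, 80 and 90 such bases, more than the limit of 30, and are not shown.

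Total counts per muscle ranged from 44848322 to 60527385. Values are given as CPM, reads per library size scaled with TMM factors, which lay between 0.935 and 0.983 in Control muscles and between 0.965 and 1.19 in *FRAIL1* muscles. *FRAIL1* muscle 5, at 1.19 against at most 1.07 in the others, stood apart, so fold changes and ratios are given with and without it where it matters. Markers of fast fibers were abundant in all 12 muscles, as in a TA. The fast myosin *Myh4* was at 45865 ± 4064 CPM (SD, n = 6) in the Control group and 34080 ± 6844 CPM in the other. *Acta1* was at 34536 ± 2812 CPM (SD, n = 6) and 31415 ± 2522 CPM (SD, n = 6). *Acta1* and *Ckm*, which were kept in the fast myofiber list, are not specific to fast fibers. RNA was taken from whole muscle, so fewer cells of a type and less RNA per cell cannot be told apart. The muscles of 1 number were treated as the 2 legs of 1 mouse, which the labels do not state.

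Of the 9 genes, *Prkab2* and *Prkag2* fell in *FRAIL1* muscles and none rose, at a threshold of 0.05 on the adjusted p-value of edgeR's quasi-likelihood test across 15502 genes. Among all tested genes 6.28% were called and 1.85% were called lower. With the mouse as a block the count was 4 of 9, all lower and now with *Prkaa2* and *Stk11*, against 14.1% of all genes (6.62% called lower and 7.48% higher). DESeq2's Wald test also called 4, with *Prkab2*, *Prkag2* and *Stk11* lower and *Prkab1* higher, against 14.3% of all genes (6.06% lower and 8.21% higher). None of the 9 was called when any 1 of Control muscles 1 to 5 or *FRAIL1* muscles 1, 4 or 6 was left out. Those fits called 364 to 601 of all 15502 genes, against 974 with every muscle. Without *FRAIL1* muscle 5 the count was 1 (*Prkab2*), with 969 over all genes. Without *FRAIL1* muscle 3 it was 4, with 2110 over all genes. An unadjusted p-value under 0.05 was reached by 6 of the 9 and by 27.7% of all tested genes. In none of the 9 did all *FRAIL1* muscles lie outside the range of the Control muscles, which held for 4.88% of all genes (1.77% lower and 3.12% higher). The median log2 fold change of the 9 was -0.06, beside 0.01 over all tested genes, because lower and higher genes stood side by side in the list. *Prkaa2*, *Prkab2* and *Prkag2* had been picked out by the study from these same muscles, so their direction is not independent evidence.

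**Figure D1:**
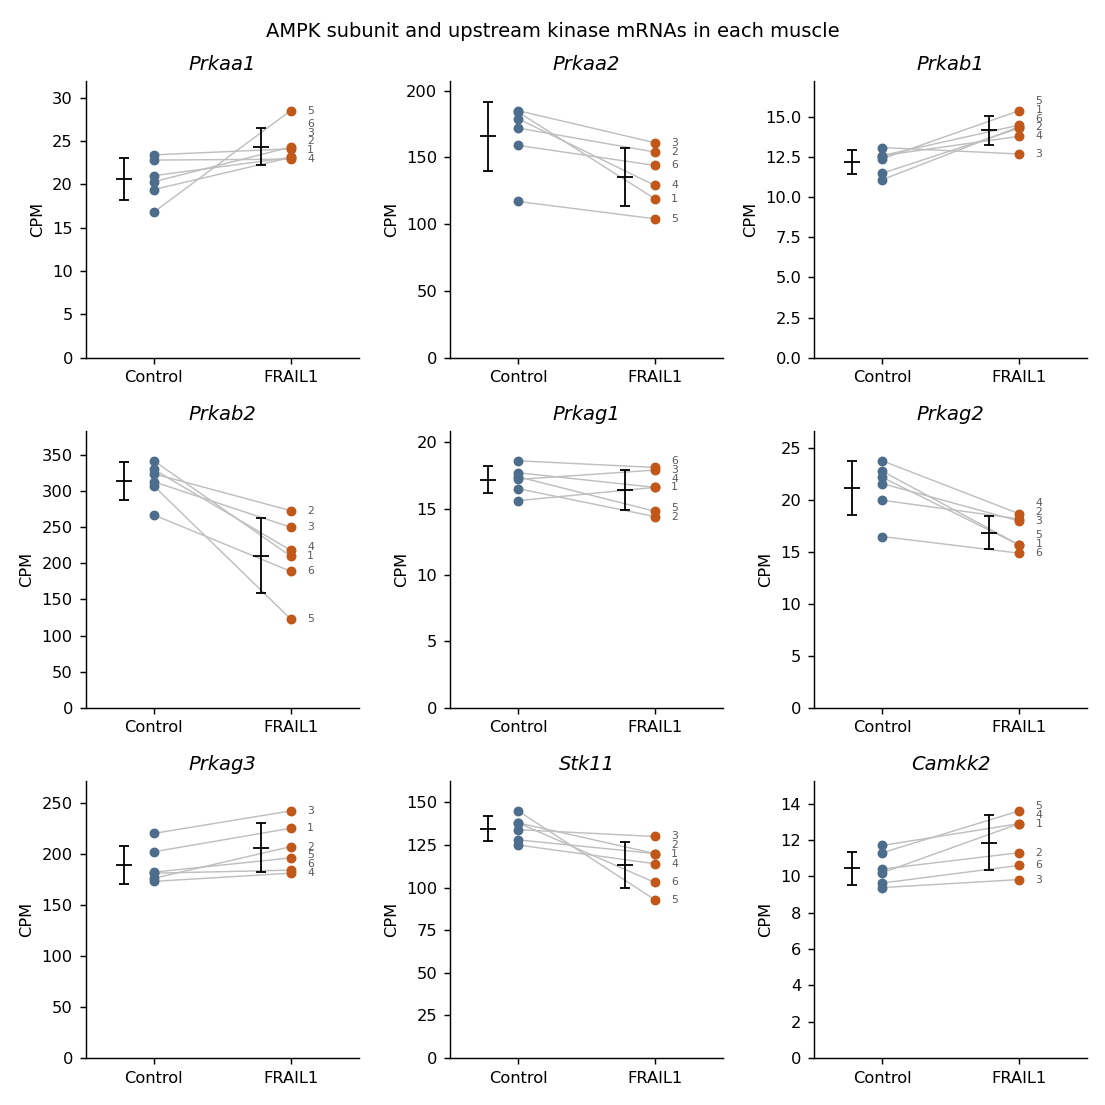
CPM (TMM-scaled, linear axes from 0) of the 9 genes in 6 Control and 6 *FRAIL1* muscles. Points are muscles, grey lines join the muscles of 1 number, small digits give that number in the order of the points, and black marks show the mean ± SD (n = 6). *Prkab2* was below the lowest Control muscle (267 CPM) in 5 of 6 *FRAIL1* muscles, while *Prkag3* was higher than its Control partner in 6 of 6.

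The catalytic subunit genes had opposite signs. *Prkaa2*, encoding the muscle-enriched α2 subunit, had a lowest, median and highest level of 117, 176 and 185 CPM in Control muscles and of 104, 137 and 161 CPM in *FRAIL1* muscles. Control muscles 5 (117 CPM) and 6 (159 CPM) lay within the *FRAIL1* range and the other 4 above it, and each *FRAIL1* muscle was below the Control muscle of its number. Control muscles averaged 166 ± 25.7 CPM (SD, n = 6) and *FRAIL1* muscles 135 ± 21.8 CPM (SD, n = 6), a change of -18.6%. The log2 fold change was -0.30 (SE 0.122, 95% interval -0.56 to -0.04), with an adjusted p-value of 0.133 by edgeR's quasi-likelihood test. A block for the mouse left the fold change the same and gave an adjusted p-value of 0.0248 (edgeR). When *FRAIL1* muscle 5 was left out the fold change was -0.23 (adjusted p = 0.259 by edgeR without the block), and without both muscles numbered 5 it was -0.32 (adjusted p = 0.0343 by edgeR). *Prkaa1*, encoding the ubiquitous α1 subunit, lay at 16.8, 20.6 and 23.4 CPM in Control and at 22.9, 23.6 and 28.5 CPM in *FRAIL1* muscles. The *FRAIL1* leg was the higher one in 6 of 6 mice, and 3 *FRAIL1* muscles exceeded every Control muscle. Its log2 fold change of 0.24 (SE 0.0816, 95% interval 0.07 to 0.41) did not pass the threshold (adjusted p = 0.0804 by edgeR, 0.092 with the block), nor under any of the 23 alternatives.

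The β subunit genes showed the widest contrast. *Prkab2*, encoding β2, the muscle-enriched subunit that bridges α and γ and binds glycogen, lay at 267, 318 and 342 CPM (lowest, median and highest) in Control muscles and at 123, 214 and 273 CPM in *FRAIL1* muscles. Only *FRAIL1* muscle 2, at 273 CPM, reached the Control range, and muscle 5 was far lower than the rest at 123 CPM, with the next at 189 CPM. The mean fell from 314 ± 26.1 CPM (SD, n = 6) to 211 ± 52.4 CPM (SD, n = 6), a change of -32.9%. Its log2 fold change was -0.57 (SE 0.147, 95% interval -0.89 to -0.26), with an adjusted p-value of 0.0376 by edgeR's quasi-likelihood test, and the *FRAIL1* leg was the lower one in 6 of 6 mice. Without *FRAIL1* muscle 5 the change was smaller at -0.46 and the adjusted p-value was 0.00779 (edgeR). The call was lost, with adjusted p-values of 0.0625 to 0.0815 (edgeR), when any 1 of Control muscles 1 to 5 or *FRAIL1* muscles 1, 4 or 6 was left out, with the fold change between -0.59 and -0.55. *Prkab1*, encoding the ubiquitous β1 subunit, lay at 11.1, 12.5 and 13.1 CPM in Control and at 12.7, 14.3 and 15.4 CPM in *FRAIL1* muscles. All *FRAIL1* muscles except number 3 were above the highest Control muscle, and 5 of 6 were above their Control partner. The log2 fold change of 0.21 (SE 0.0662, 95% interval 0.07 to 0.36) did not pass the threshold (adjusted p = 0.0609 by edgeR). It did so without *FRAIL1* muscle 3 (0.24, adjusted p = 0.0303 by edgeR) and in DESeq2's Wald test (adjusted p = 0.0307).

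Among the γ subunit genes a lower level was seen for *Prkag2* but not for the muscle-enriched *Prkag3*. *Prkag3*, encoding γ3, the regulatory subunit of glycolytic fibers, lay at 173, 181 and 220 CPM in Control and at 181, 201 and 242 CPM in *FRAIL1* muscles. The ranges overlapped for most muscles, although each *FRAIL1* muscle was above its Control partner. Its log2 fold change was 0.12 (SE 0.0838) and did not pass the threshold (adjusted p = 0.352 by edgeR, 0.14 with the block). The 95% interval of -0.05 to 0.30 lies apart from that of *Prkab2* (-0.89 to -0.26). It does not reach the estimate of *Prkaa2* (-0.30), but it overlaps the interval of that gene (-0.56 to -0.04). *Prkag2*, encoding γ2, lay at 16.5, 21.9 and 23.8 CPM in Control and at 14.9, 16.8 and 18.7 CPM in *FRAIL1* muscles. Control muscle 6, the lowest at 16.5 CPM, made the groups overlap, and the other 5 Control muscles were above every *FRAIL1* muscle. *Prkag2* fell from 21.1 ± 2.62 CPM (SD, n = 6) to 16.9 ± 1.61 CPM (SD, n = 6), with a log2 fold change of -0.33 (SE 0.0889, 95% interval -0.52 to -0.14) and an adjusted p-value of 0.0431 by edgeR's quasi-likelihood test. All 6 mice had less in the *FRAIL1* leg. Leaving out 1 muscle kept the fold change between -0.39 and -0.29, but the call held only without Control muscle 6, *FRAIL1* muscle 2 or *FRAIL1* muscle 3, and the highest adjusted p-value was 0.0899 (edgeR, without Control muscle 1). Gene counts do not tell which of the 3 annotated *Prkag2* starts was used. *Prkag1*, encoding the ubiquitous γ1, lay at 15.6, 17.3 and 18.6 CPM in Control and at 14.4, 16.6 and 18.1 CPM in *FRAIL1* muscles, almost the same range. The log2 fold change was -0.06 (SE 0.0711, 95% interval -0.22 to 0.09, adjusted p = 0.59 by edgeR). An antisense gene, *B130046B21Rik*, covers 44.2% of its exon bases, and the strand setting of the counting is not given in the sources used here.

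The upstream kinase genes also had opposite signs. *Stk11*, encoding LKB1, the constitutively active kinase that phosphorylates AMPK and its relatives, lay at 125, 136 and 145 CPM in Control and at 92.9, 117 and 130 CPM in *FRAIL1* muscles. Only *FRAIL1* muscle 3, at 130 CPM, reached the Control range. Control muscles averaged 135 ± 7.19 CPM (SD, n = 6) and *FRAIL1* muscles 113 ± 13.3 CPM (SD, n = 6), with all 6 mice lower in the *FRAIL1* leg. Its log2 fold change of -0.25 (SE 0.0759, 95% interval -0.41 to -0.09) had an adjusted p-value of 0.0584 by edgeR's quasi-likelihood test, and of 0.0489 once the mouse was a block. Leaving out *FRAIL1* muscle 5, it was -0.20 (adjusted p = 0.0625 by edgeR). *Stk11* overlaps *Cbarp* on the opposite strand over 8.3% of its exon bases. *Camkk2*, encoding the calcium-dependent AMPK kinase, was the least abundant of the 9 at 9.38, 10.3 and 11.7 CPM in Control and 9.82, 12.1 and 13.6 CPM in *FRAIL1* muscles. Each *FRAIL1* muscle was above its Control partner, and the log2 fold change was 0.18 (SE 0.0907, 95% interval -0.01 to 0.38, adjusted p = 0.198 by edgeR).

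**Figure D2:**
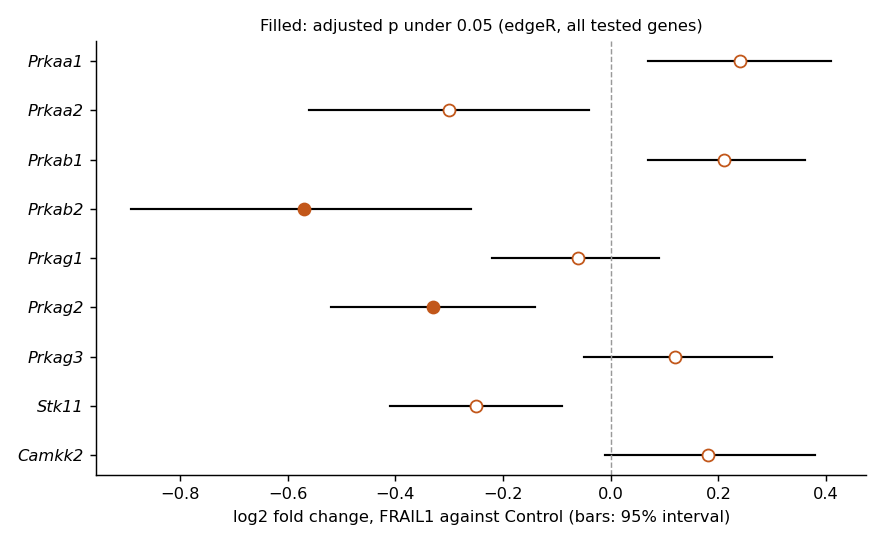
Log2 fold change of each gene in *FRAIL1* against Control muscles (horizontal axis) from edgeR's quasi-likelihood fit of 12 muscles. Points are estimates, bars are 95% intervals, and filled points passed an adjusted p-value of 0.05 over all tested genes. *Prkab2* (-0.57) and *Prkag2* (-0.33) are filled, and the ubiquitous *Prkaa1* and *Prkab1* lie on the other side of 0.

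Muscle-enriched and ubiquitous isoforms of a subunit were then compared within each muscle as the ratio of their read counts, which does not depend on how libraries are scaled. The α2 to α1 ratio (*Prkaa2*/*Prkaa1*) fell in *FRAIL1* muscles. It was 7.01, 7.89 and 8.86 (lowest, median and highest) in Control and 3.64, 5.79 and 6.69 in *FRAIL1* muscles, so the groups did not overlap. The mean log2 ratio was 3.0 ± 0.124 (SD, n = 6) in Control and 2.46 ± 0.326 (SD, n = 6) in *FRAIL1* muscles, a difference of -0.54. The two-sided exact permutation test gave p = 0.00216, the smallest that 6 against 6 muscles allow, and 0.00433 after Benjamini-Hochberg adjustment over the 4 ratios. The β2 to β1 ratio (*Prkab2*/*Prkab1*) also fell, and further. It was 23.9, 25.4 and 28.2 in Control and 8.0, 15.2 and 19.7 in *FRAIL1* muscles, again without overlap. The mean log2 ratio was 4.68 ± 0.0982 (SD, n = 6) in Control and 3.85 ± 0.474 (SD, n = 6) in *FRAIL1* muscles, a difference of -0.83 with the same exact permutation p-values. Both ratios were lower in 6 of 6 mice, and the paired exact permutation test of the 6 differences gave p = 0.0312, the smallest it allows, which became 0.0625 after adjustment over the 4 ratios and did not pass the threshold. *FRAIL1* muscle 5 had the lowest value of both ratios, at 3.64 and 8.0, and without it the differences were -0.42 (exact permutation p = 0.00433) and -0.66 (exact permutation p = 0.00216). The study had picked out *Prkaa2* and *Prkab2* from these same muscles, so the p-values of both ratios are not independent evidence.

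The γ ratios differed less between the groups. *Prkag3*/*Prkag1* was 9.71, 10.9 and 12.8 in Control and 10.2, 13.4 and 14.3 in *FRAIL1* muscles, higher in 5 of 6 mice. The difference of 0.19 on the log2 scale did not pass the threshold (two-sided exact permutation p = 0.0931, adjusted 0.0931). The ratio *Prkag2*/*Prkag1* was 0.885, 1.26 and 1.53 in Control and 0.823, 1.03 and 1.26 in *FRAIL1* muscles, lower in 5 of 6 mice. Its difference of -0.26 had the same exact permutation p-value of 0.0931. Leaving out 1 muscle brought p below 0.05 for *Prkag3*/*Prkag1* without Control muscle 3 (0.23, exact permutation p = 0.0455) or *FRAIL1* muscle 6 (0.25, exact permutation p = 0.0216), and for *Prkag2*/*Prkag1* without Control muscle 6 (-0.35, exact permutation p = 0.013).

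**Figure D3:**
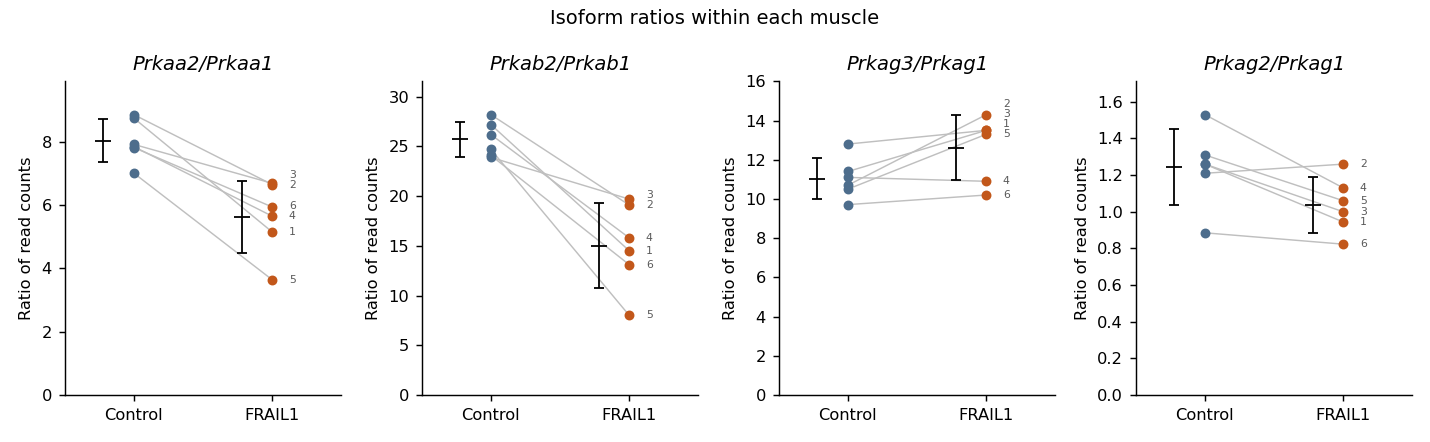
Ratio of the read counts of 2 isoform genes in each muscle (linear axes from 0). Points are muscles, grey lines join muscles of 1 number, small digits give that number in the order of the points, and black marks are the mean ± SD of the plotted ratios (n = 6). The *FRAIL1* muscles lie below every Control muscle for *Prkaa2*/*Prkaa1* (3.64 to 6.69 against 7.01 to 8.86) and *Prkab2*/*Prkab1* (8.0 to 19.7 against 23.9 to 28.2), and the groups overlap for both γ ratios.

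Of the muscle-enriched subunit genes, *Prkaa2* (-0.30) and *Prkab2* (-0.57) had a negative log2 fold change and *Prkag3* (0.12) a positive one. Only *Prkab2* was called in the main fit. After the values above had been seen, *Prkaa2* and *Prkab2* were also set against *Prkag3*. *Prkab2*/*Prkag3* was 1.43, 1.69 and 1.91 in Control and 0.627, 1.03 and 1.32 in *FRAIL1* muscles without overlap. The difference was -0.74 on the log2 scale, and -0.60 without *FRAIL1* muscle 5. *Prkaa2*/*Prkag3* was 0.645, 0.893 and 1.04 in Control and 0.529, 0.69 and 0.785 in *FRAIL1* muscles, which overlapped. The difference was -0.42, and -0.36 without *FRAIL1* muscle 5. Both ratios were lower in 6 of 6 mice. These 2 ratios were chosen on the data they describe, so no p-value is given for them.

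To compare levels between genes, CPM was divided by the length of each gene's merged exons in kb. In Control muscles *Prkab2* stood highest at 62.7 ± 5.22 CPM per kb (SD, n = 6), followed by *Prkag3* at 53.3 ± 5.17 and *Stk11* at 48.2 ± 2.58. The ranges of *Prkab2* (53.3 to 68.2) and *Prkag3* (48.7 to 61.9) overlapped, as did those of *Prkag3* and *Stk11* (44.8 to 51.8), and with the longest coding transcript as the length *Prkag3* came first, at 66.7 against 62.7 CPM per kb. *Prkaa2* followed at 20.8 ± 3.23 and *Prkag1* at 10.4 ± 0.631 CPM per kb, each apart from its neighbors. The ranges of *Prkag2* (5.42 ± 0.672) overlapped those of *Prkab1* (5.72 ± 0.36) and *Prkaa1* (4.43 ± 0.519), and *Camkk2* was lowest at 2.01 ± 0.173 CPM per kb. In *FRAIL1* muscles the order began with *Prkag3* at 58 ± 6.73 CPM per kb, ahead of *Prkab2* at 42.1 ± 10.5 and *Stk11* at 40.5 ± 4.77, whose ranges overlapped widely. *Prkaa1* (5.23 ± 0.454) stood above *Prkag2* (4.32 ± 0.412), the reverse of their order in Control muscles.

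**Figure D4:**
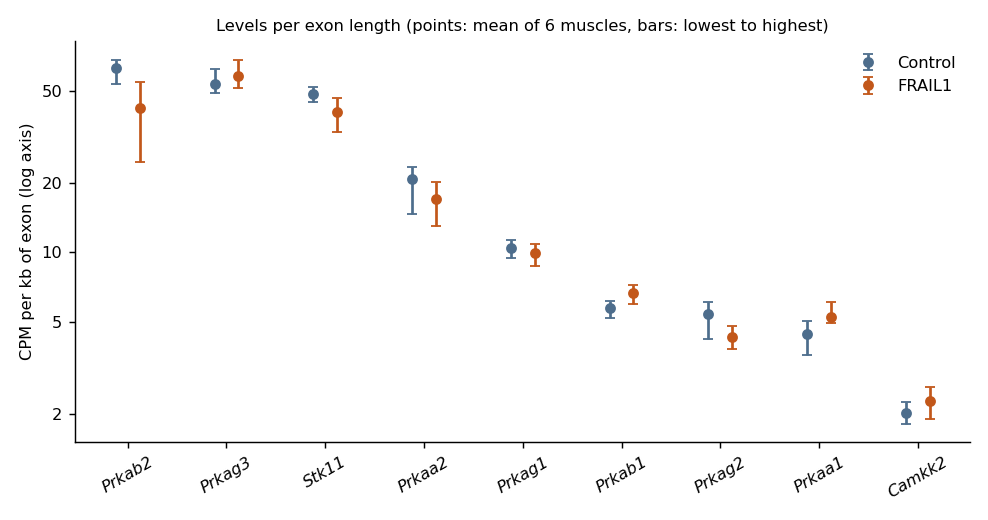
Level per exon length (CPM per kb of merged exons, log axis) of the 9 genes, ordered by the Control mean. Points are means of 6 muscles and bars run from the lowest to the highest muscle. *Prkab2* leads in Control (62.7) and *Prkag3* in *FRAIL1* muscles (58), and *Camkk2* is lowest in both.

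On this scale *Prkaa2* made up 82.4 ± 1.26% (SD, n = 6) of the α mRNA in Control muscles and 76.1 ± 4.31% in *FRAIL1* muscles, with ranges of 80.4 to 83.8% and 68 to 79.6%. *Prkab2* made up 91.6 ± 0.519% (SD, n = 6) of the β mRNA in Control and 85.6 ± 4.41% in *FRAIL1* muscles, with ranges of 91.1 to 92.3% and 77.3 to 89.4%. The summed β mRNA was 68.4 ± 5.44 CPM per kb (SD, n = 6) in Control and 48.7 ± 10.2 in *FRAIL1* muscles. The sums of α (25.3 ± 3.69 and 22.2 ± 2.5) and γ (69.1 ± 5.46 and 72.3 ± 7.01) differed less between the groups. *Prkag3* was 77 ± 1.4% of the γ mRNA in Control and 80.2 ± 1.95% in *FRAIL1* muscles, and *Prkag2* was 7.88 ± 1.11% and 6.01 ± 0.751%. The muscle-enriched isoform thus remained the most abundant of each subunit in all 12 muscles. The α and β shares restate the ratios tested above, and protein was not measured here.

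*FRAIL1* muscle 5 was the extreme of its group for 6 of the 9 genes, the lowest for *Prkaa2*, *Prkab2* and *Stk11* and the highest for *Prkaa1*, *Prkab1* and *Camkk2*. Its summed fast myofiber markers (8 of 8 detected) were 120623 CPM, against 158703 CPM for the median *FRAIL1* muscle and 169399 to 200857 CPM in Control muscles. Summed fibroblast and fibro-adipogenic markers (5 of 5 detected) were 918 to 1737 CPM in Control and 1844 to 4807 CPM in *FRAIL1* muscles, with muscle 5 at 4807 and the next at 2297 CPM. For satellite cell and regenerating fiber markers (5 of 5 detected) the sums were 163 to 211 CPM and 319 to 1526 CPM, with muscle 5 at 1526 and the next at 643 CPM. For denervated fiber markers (5 of 5 detected) they were 49.6 to 68.5 CPM and 114 to 222 CPM, again highest in muscle 5. Such sums weigh the abundant genes most. *Col3a1* (mean 731 CPM in Control and 1293 CPM in *FRAIL1* muscles) and *Col1a1* (449 and 927 CPM) led the fibroblast list, while *Dcn* was at 184 and 186 CPM. All 5 fibroblast markers had a positive log2 fold change and none was called (edgeR). In the satellite cell list *Myh8* (98.3 and 353 CPM) and *Myh3* (50.9 and 228 CPM) led, with *Pax7* at 2.4 and 3.54 CPM. Macrophage marker sums were 64.5 to 94.7 CPM in Control and 80.2 to 190 CPM in *FRAIL1* muscles, with muscle 1 highest. Those of endothelium (334 to 388 and 264 to 346 CPM), Schwann cells (59.2 to 113 and 44.2 to 78.1 CPM) and slow or oxidative fibers (292 to 2163 and 445 to 1580 CPM) overlapped between the groups, with no marker of these lists at 0. The part of these cell types and fiber states in the lower *Prkab2*, *Prkaa2* and *Stk11* levels was not tested.

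Of the 43 markers in these lists, 11 passed the threshold in edgeR's quasi-likelihood test, against 6.28% of all tested genes. With the mouse as a block 17 passed, against 14.1% of all genes. The rises were in myogenin (*Myog*, log2 fold change 1.46, adjusted p = 0.0124 by edgeR) and the embryonic and perinatal myosins *Myh3* (2.16, adjusted p = 0.0124) and *Myh8* (1.84, adjusted p = 0.0227). They were also in the acetylcholine receptor subunits *Chrna1* (1.46, adjusted p = 3.4e-04 by edgeR) and *Chrng* (1.88, adjusted p = 0.0016), in *Ncam1* (1.35, adjusted p = 0.00128) and in *Runx1* (0.89, adjusted p = 0.0277, and 0.0678 with the block). The slow-fiber troponins *Tnni1* (2.27, adjusted p = 0.00817 by edgeR) and *Tnnc1* (1.58, adjusted p = 0.0145) rose as well, while the other 3 markers of that list did not pass. *Tek*, an endothelial receptor, fell (-0.41, adjusted p = 0.0186 by edgeR), as did muscle creatine kinase, *Ckm*, which is also in the AMPK signaling list described next. The fast myosin *Myh4* had a mean of 45865 ± 4064 CPM (SD, n = 6) in Control and 34080 ± 6844 CPM in *FRAIL1* muscles (log2 fold change -0.43, adjusted p = 0.0548 by edgeR, 0.0328 with the block). The 8 fast myofiber markers had log2 fold changes from -0.43 to 0.00 (*Mylpf*), with a median of -0.26, and *Ckm* alone was called without the block. *Prkab2* was at -0.57. *Prkag3*, itself a fast-fiber gene, was at 0.12. Its interval given above (-0.05 to 0.30) included the value of *Mylpf* but none of the other 7. Their estimates ran from -0.43 to -0.14 (*Acta1*) and lay below it. Whether fast-fiber content had a part in the level of *Prkab2* or *Prkag3* was not tested. Besides *Myh4*, the block added calls for the fast-fiber actinin *Actn3* (adjusted p = 0.0472 by edgeR with the block), the endothelial receptor *Kdr* (0.0264), the macrophage genes *Adgre1* (0.021) and *Csf1r* (0.0443), and *Pax7* (0.0345) and *Myod1* (0.0107) of satellite cells and myoblasts. *Actn3* and *Kdr* were lower and the other 4 higher in *FRAIL1* muscles, and these 6 were chosen after their values were seen.

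The other genes of AMPK signaling were followed in a list of 55 genes, all tested. Only *Nuak1* and *Ckm* were called and both fell, against 6.28% called and 1.85% called lower among all tested genes. Of the 55, 43 had a negative log2 fold change, beside 7500 of all 15502 tested genes. The median was -0.14, beside 0.01 over all genes. With the mouse as a block 10 of 55 were called, all lower, against 14.1% of all genes called and 6.62% called lower. Leaving out *FRAIL1* muscle 2, 3 or 5 gave 5, 11 or 7 called, while the same fits called 1579, 2110 and 969 of all genes, against 974 with every muscle. Leaving out any Control muscle or *FRAIL1* muscle 1 or 6 gave 1, with 364 to 601 called over all genes, and leaving out *FRAIL1* muscle 4 gave 2, 1 lower and 1 higher, with 494 over all genes. *Nuak1*, a kinase of the AMPK family activated by LKB1, fell from 29.7 ± 1.78 CPM (SD, n = 6) to 23.6 ± 2.54 CPM (SD, n = 6). Its log2 fold change was -0.33 (SE 0.0725, adjusted p = 0.0198 by edgeR), its groups did not overlap (27.4 to 32 against 19.2 to 27.1 CPM), and it was called in all 12 fits that left out 1 muscle. *Ckm*, which buffers ATP with phosphocreatine, fell from 12444 ± 964 to 9556 ± 1615 CPM (log2 fold change -0.38, SE 0.108, adjusted p = 0.0482 by edgeR), and kept its call in 3 of those 12 fits, with adjusted p-values up to 0.0912.

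By role, the 12 upstream activators and regulators had 6 positive and 6 negative fold changes (median -0.02) and none called. The largest was that of *Sesn3*, a stress-induced sestrin, at 1.58 ± 0.301 CPM (SD, n = 6) in Control and 2.1 ± 0.645 CPM in *FRAIL1* muscles (0.42, adjusted p = 0.204 by edgeR). Of the 12 AMPK-related kinases downstream of LKB1, 9 were negative (median -0.11) with *Nuak1* alone called, and the largest change was that of *Brsk2*, which was at most 1.21 CPM in any muscle (0.50, adjusted p = 0.247 by edgeR). Of the 9 metabolic substrates, 7 were negative (median -0.18) and none called. *Pfkfb3*, whose product makes the glycolytic activator fructose 2,6-bisphosphate, was at 201 to 303 CPM in Control and at 52.3 to 192 CPM in *FRAIL1* muscles, without overlap. Its log2 fold change was -0.82 (SE 0.253, adjusted p = 0.07 by edgeR, 0.0432 with the block). All 13 growth, autophagy and transcription substrates were negative, from -0.32 to -0.11 (median -0.15), and none was called. *Ulk1*, which starts autophagy, was the furthest at -0.32 (75.2 ± 4.09 and 60.4 ± 10.1 CPM, SD, n = 6, adjusted p = 0.0583 by edgeR, 0.0205 with the block). Of the 9 genes of adenine nucleotide handling and glucose or fat use, 8 were negative (median -0.29) and *Ckm* was called, while AMP deaminase 3 (*Ampd3*) had the largest fold change and a positive one (0.55, adjusted p = 0.176 by edgeR), with *FRAIL1* muscles between 12.2 and 39.7 CPM.

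**Figure D5:**
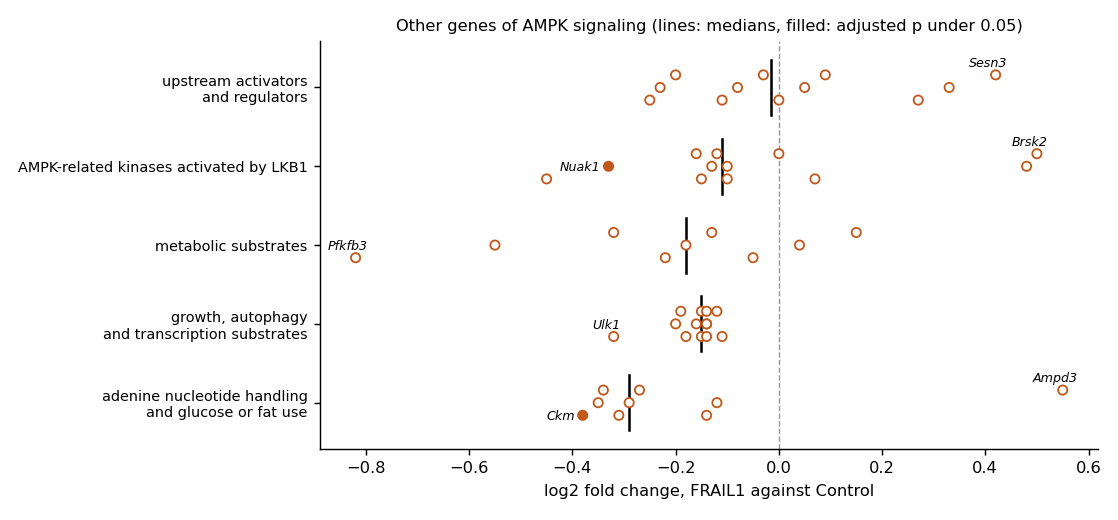
Log2 fold change in *FRAIL1* against Control muscles (horizontal axis) of 55 other AMPK signaling genes, in 5 groups by role. Points are genes, black lines are group medians, and filled points passed an adjusted p-value of 0.05 (edgeR). Only *Nuak1* (-0.33) and *Ckm* (-0.38) are filled, and the 13 growth, autophagy and transcription substrates all lie between -0.32 and -0.11.

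The genes whose log2 CPM over the 12 muscles followed that of a subunit gene most closely were looked up among 7867 genes of at least 10 CPM on average. These correlations are descriptions, over muscles that share their libraries, scaling and group difference. For *Prkab2* they were *Ccnk*, encoding cyclin K, *Eif4g1*, encoding a translation initiation scaffold, and *Scn4a*, encoding the muscle sodium channel, each with r = 0.993. After subtracting group means r was 0.986 to 0.987. For *Prkaa2* they were *Cnot7*, *Mzt1* and *Mbnl1* (r = 0.977 to 0.982), and for *Prkag2* they were *Nup210*, *Arfgap1* and *Clu* (0.926 to 0.946). *Prkag3* had a looser following in *Psmd6*, *Cacnb1* and *Eif2b4* (0.846 to 0.851). Within the AMPK genes, *Prkab2* ran closest with *Stk11* (r = 0.883, and 0.748 within groups, n = 12), *Prkag2* (0.796 and 0.555) and *Prkaa2* (0.762 and 0.63). Its r with *Prkag3* was -0.112, and 0.313 within groups. All these correlations include *FRAIL1* muscle 5, far the lowest for *Prkab2* at 123 CPM with the next at 189 CPM. Subtracting group means does not remove the weight of that muscle, and no correlation is given without it.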

How the data were processed

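The samples were 12 TA muscles in 2 labelled groups of 6, Control and *FRAIL1*. Per the labels and the study's methods, the authors sequenced poly(A)-selected RNA as 150-base read pairs, trimmed with Trimmomatic, mapped to mm10 with STAR 2.7.8a and deposited featureCounts 2.0.1 counts of uniquely mapped reads per gene, without normalization. The strand setting is not given in the sources used here. Of 27179 NCBI Gene IDs, 25275 matched a symbol, and the others held 0.28% of the counts. Totals ranged from 44848322 to 60527385, and counting error was not set apart from the spread between muscles. No library was a copy of another (chi-square per degree of freedom at least 15.4).

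After filterByExpr, 15502 genes were kept. They were scaled by TMM and compared, without a block since the study's methods state none, with edgeR 4.0.16 (robust quasi-likelihood fit and test, limma 3.58.1, R 4.3.3), with Benjamini-Hochberg adjustment over all tested genes and a threshold of 0.05. The same steps were run on simulated counts without a mouse effect or an outlying muscle. That run therefore does not bear on the pairing or on the weight of single muscles. Isoform ratios were compared by exact permutation tests. Alternatives were a replicate block, 3 other scalings, 2 other filters, DESeq2 1.42.0, a fit that was not robust, each muscle left out, and both muscles numbered 5 left out. Both muscles 5 left out with the block, and the ratios to *Prkag3*, were added after seeing the data. Motifs were searched on both strands. Promoter windows of all 9 genes were taken from RefSeq (GRCm38.p6).

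The members and lists were chosen with earlier results of these data known. Besides the 9 genes, the rule named pathway genes past the threshold, the largest fold change of each pathway group, *Acta1*, *Ckm*, *Myh4*, markers past the threshold, and the 3 best-correlated genes of *Prkaa2*, *Prkab2*, *Prkag2* and *Prkag3*. The series design gives each mouse 1 muscle of each group, but the labels do not say that the number is the mouse. Deviations from group means of 15502 genes correlated at 0.254, 0.162, 0.282, 0.263, 0.0547 and 0.185 for numbers 1 to 6 (mean 0.2, against -0.04 between other numbers). In each group 5 of the 6 muscles matched the muscle of their own number best, and muscle 5 did not. The numbers were taken as mice, with number 5 the least certain.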

Additional observations from a re-analysis of the deposited data

Results flagged for a closer look

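*Prkaa1* in *FRAIL1* muscle 5 measured 28.5 CPM, with the nearest *FRAIL1* muscle at 24.3 CPM, a gap of 0.755 of the group's range (past Dixon's critical value for 6 samples). It was the only such sample in 26 groups of 6 examined, and chance gives about 1 in 20. The same muscle had the highest TMM factor, 1.19. Without it the log2 fold change of *Prkaa1* was 0.19 (adjusted p = 0.162 by edgeR) in place of 0.24 (adjusted p = 0.0804).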

How the results depend on the processing

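No fold change of the 9 genes and none of the 4 ratio differences changed sign under any alternative run, and the median log2 fold change of all genes stayed between 0.00 and 0.02 under every scaling. The count over all genes (974, 29.5% of them lower) was 2186 with the replicate block (47% lower), 2211 with DESeq2 (42.5% lower), 2875 with DESeq2 and the block (48.7% lower), 2305 without both muscles numbered 5 and with the block (52.6% lower), and 364 (without *FRAIL1* muscle 1) to 2110 (without *FRAIL1* muscle 3) with 1 muscle left out, and was 969 without *FRAIL1* muscle 5 (40.6% lower). The count of the 9 genes (2) was 4 with the replicate block, 4 with DESeq2, 4 with DESeq2 and the block, 4 without both muscles 5 and with the block, 1 without a filter, and 0 to 4 with 1 muscle left out, at 0 for 8 of the 12 muscles left out. The count of the 55 pathway genes (2) was 10 with the replicate block, 12 with DESeq2, 18 with DESeq2 and the block, 4 without both muscles 5, 13 without them and with the block, 1 without a filter, and 1 to 11 with 1 muscle left out. *Prkab2* kept its call in 14 of 23 alternatives (adjusted p 5.5e-06 to 0.0815 by edgeR or DESeq2), *Prkag2* in 13 of 23 (0.00253 to 0.0905), *Stk11* gained one in 7 of 23, *Prkaa2* in 4 of 23 and *Prkab1* in 2 of 23. *Prkaa1*, *Prkag1*, *Prkag3* and *Camkk2* gained none. The log2 ratio differences with 1 muscle left out were 0.15 to 0.25 for *Prkag3*/*Prkag1*, -0.35 to -0.19 for *Prkag2*/*Prkag1*, -0.60 to -0.42 for *Prkaa2*/*Prkaa1* and -0.92 to -0.66 for *Prkab2*/*Prkab1*, the latter pair with exact permutation p-values of at most 0.00649. With the replicate block (the paired test) the ratio differences were the same, and the adjusted p-value was 0.0625 for each of the 4 (exact permutation), so the calls of *Prkaa2*/*Prkaa1* and *Prkab2*/*Prkab1* held only before adjustment (p = 0.0312, the smallest the paired test allows). Why calls depend on single muscles was not tested.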
